A study of Mus musculus with 7 samples.

Results

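Interferon response genes were examined in mouse epidermis after deletion of Abca12, which encodes a transporter that loads lipids into the lamellar granules of keratinocytes. The members are all genes of the authors' deposited table whose symbols begin with Ifi followed by a digit or t, Ifn, Isg, Oas, Irf, Stat or Gbp with a digit, Irgm or Iigp, or are Rsad2, Mx1, Mx2 or Usp18. They number 36 of 7091 listed genes. The same rule finds 114 genes in the GENCODE M21 annotation, and the other 78, Irf1, Rsad2 and all interferon ligand genes among them, were not analysed here.

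Both groups of mice carried a conditional Abca12 allele (written ABCA12-c/c in the labels of the controls), were 8 weeks old when treated, and were injected with tamoxifen in corn oil on 3 consecutive days, with 1 mg for each 40 g of weight. The 4 KA mice also carried K14-CreERT (K14-CreERT;ABCA12-cKO), a tamoxifen-dependent recombinase under the keratin 14 promoter of basal keratinocytes. The 3 controls had no CreERT, so effects of losing Abca12 and effects of recombinase activity cannot be told apart. RNA of telogen skin epidermis, taken 2 weeks after tamoxifen, was sequenced in bulk, 1 library per mouse. KA 1, KA 2 and control 2 were males, and KA 3, KA 4, control 1 and control 3 were females.

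Interferons are secreted cytokines that cells make after sensing viral nucleic acid or other danger signals. Type I interferons (alpha, beta, kappa) signal through IFNAR1 and IFNAR2, and type III (lambda) through IFNLR1 with IL10RB. Both lead to a complex that holds STAT2 and IRF9 and binds interferon-stimulated response elements. Interferon gamma, made by T and NK cells, signals through IFNGR1 and IFNGR2 to factors that bind gamma-activated sites. Keratinocytes respond to all of them and keep a low tonic level of interferon-induced genes. Several genes that carry these family names have other main tasks, such as Stat3 downstream of interleukins, and Irf4 and Irf8 in immune cell identity.

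The table lists only genes with an adjusted p of the authors under 0.05, so passing the refit describes selected genes and is not independent evidence; the direction and size of the changes carry the description. Reads in listed genes, which are a part of each library and no depth, ran from 9590718 to 12761458. Of the keratinocyte markers, 4 of 8 were listed, and their summed level was 435224 to 475432 normalized reads in controls and 973768 to 1052730 in KA. Of these Krt1, Krt14 and Krt5 were higher, and Col17a1 was lower, at 50806 ± 7924 (SD, n = 3) in controls and 24532 ± 6145 (SD, n = 4) in KA. Fibroblast and mast cell markers (0 of 6 and 0 of 5 listed) were not analysed here. Langerhans and dendritic cell markers (10 of 11 listed) summed to 29466 to 40858 in controls and 66058 to 100574 in KA. Macrophage and monocyte markers (7 of 12 listed) summed to 837 to 1198 against 1790 to 2189, and T cell markers (7 of 13 listed) to 1530 to 2019 and 1163 to 1294. Of the 8 neutrophil markers only Cxcr2 was listed, at 0 to 4.01 in controls and 220 to 386 in KA. In bulk RNA, fewer cells of a type and less RNA per cell cannot be told apart.

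The direction was mixed over the whole set and mostly downward among the members listed as known interferon-induced genes. That list was set by gene name. It left out Irf8 and Ifi30, which were higher, and Isg20, which was lower, among others. By the log2 fold changes of the authors' deposited table, 27 members lay below 0 and 9 above 0, where 47.4% of all listed genes lay below 0 and 52.6% above. In the refit of raw counts (edgeR quasi-likelihood, Benjamini-Hochberg adjusted p under 0.05 over 6761 genes), 35 members were tested. Of these, 26 were lower in KA (74.3%), 8 were higher (22.9%) and 1, Irf5, did not pass. Among all genes tested, 91.5% passed, 47.5% lower and 44% higher. The median log2 fold change was -1.06 over the members and 0.22 over all genes tested. Of the 21 members listed as known interferon-induced genes, 20 were tested, 18 passed as lower and 2, Ifitm2 and Ifitm3, as higher, with a median of -1.43. The other 15 members split into 8 lower, 6 higher and 1 that did not pass, with a median of -0.49.

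**Figure D1:**
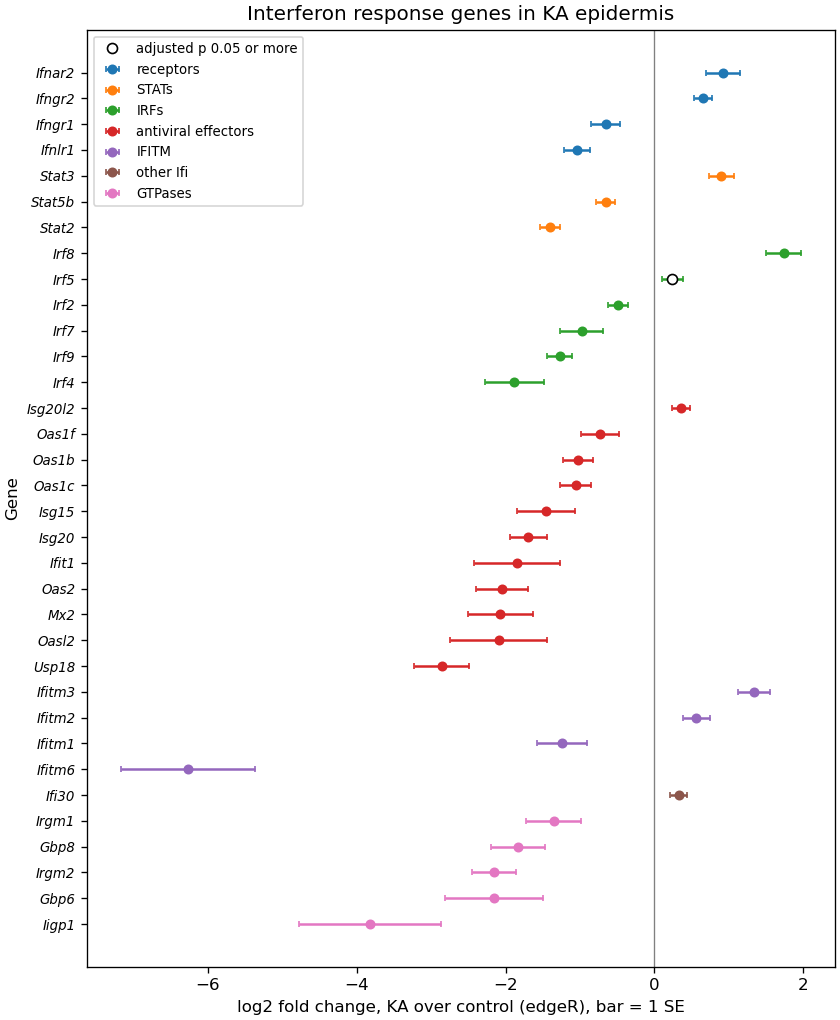
Log2 fold change of the tested members named in the text (horizontal axis, KA over control, points, with bars of 1 SE), ordered by role on the vertical axis. Values run from -6.27 for Ifitm6 to 1.74 for Irf8, and all 5 Gbp, Irgm and Iigp GTPases lie below 0. The open symbol marks Irf5, the member that did not pass.

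The 2 groups were fully apart in 25 of the 35 tested members, 17 lower and 8 higher in KA. Over all genes tested the groups did not overlap in 93.5%, 44.5% lower and 49% higher. The 10 members with overlapping values were Iigp1, Gbp6, Oasl2, Ifit1, Isg15, Irgm1, Irf7, Oas1f, Ifngr1 and, among the higher ones, Ifitm2. In all 9 of the lower ones control 1 held the lowest control value, against 43.5% of all listed genes and 51.9% of all lower members. A lower member overlaps only where its lowest control is below the highest KA value, so these 9 were picked in part by a low control.

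Among the receptors, 2 subunits were higher and 2 lower. Ifnar2, a subunit of the type I receptor (chromosome 16, 91372783 to 91405589), measured 130, 109 and 140 normalized reads in the control libraries, given here and below in the order of their sample numbers. The KA libraries measured 263, 234, 201 and 352. Every KA value lay above every control, and the log2 fold change was 0.92 (SE 0.23; edgeR adjusted p = 0.00361). Ifngr2, the signalling subunit of the interferon gamma receptor, lies in the same chromosome 16 cluster (91547072 to 91565623). It measured 842, 763 and 909 in controls and 1620, 1311, 1505 and 1337 in KA, again without overlap, with a log2 fold change of 0.65 (SE 0.12; edgeR adjusted p = 0.000925). Its partner Ifngr1, the ligand-binding subunit (chromosome 10, 19591949 to 19610229), went the other way. Ifngr1 measured 2884, 4565 and 4210 in controls and 2651, 2451, 2186 and 3501 in KA (log2 fold change -0.66, SE 0.19; edgeR adjusted p = 0.00816). KA 4 lay above control 1 for this gene. Per kilobase of gene length, the level of Ifngr2 was 0.126 to 0.221 of that of Ifngr1 in controls and 0.289 to 0.52 in KA, so the ratio did not overlap between groups while the ligand-binding subunit remained the more abundant in every library. Ifnlr1, the receptor subunit specific to interferon lambda (chromosome 4, 135686287 to 135708181), measured 693, 542 and 563 in controls and 320, 247, 381 and 333 in KA. All KA values were below all controls, with a log2 fold change of -1.04 (SE 0.18; edgeR adjusted p = 0.000558).

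Of the 3 STAT factors 2 were lower and 1 was higher. Stat2, the partner of IRF9 in the type I and III response (chromosome 10, 128270559 to 128292849), had the tightest control values of the set for their level (SD 3.27% of the mean). It measured 659, 674 and 632 normalized reads in controls and 267, 246, 299 and 272 in KA, a fall of 58.7% in the mean and a log2 fold change of -1.41 (SE 0.13; edgeR adjusted p = 2.63e-05). Stat5b, which signals for growth hormone and several interleukins (chromosome 11, 100780731 to 100850724), measured 1263, 1092 and 1180 in controls and 785, 726, 892 and 878 in KA. It fell without overlap, by 0.66 on the log2 scale (SE 0.13; edgeR adjusted p = 0.00129). Stat3, the main transducer of interleukin 6 and interleukin 22 family signals, lies beside it (100885098 to 100939540) and rose. Its values were 3780, 3353 and 4250 in controls and 8245, 6955, 6173 and 9717 in KA (log2 fold change 0.90, SE 0.17; edgeR adjusted p = 0.000823). Per kilobase, Stat3 stood at 3.09 to 4.18 times the level of Stat2 in controls and at 12.9 to 22.2 times in KA. Exons of Stat3 overlap those of Stat5a on the other strand, and the strand setting of the counting is not given in the sources used here.

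Of the 7 IRF factors 5 were lower, 1 was higher and Irf5 did not pass. Irf9, the DNA-binding part of the complex with STAT2 (chromosome 14, 55603571 to 55610030), measured 912, 1185 and 1377 normalized reads in controls and 432, 501, 555 and 601 in KA. The groups did not overlap and the log2 fold change was -1.28 (SE 0.17; edgeR adjusted p = 0.000147). Exons of Irf9 overlap those of Rnf31 on the same strand, whose log2 fold change was -0.55. Irf7, the factor that amplifies interferon alpha production and is itself interferon-induced (chromosome 7, 141262706 to 141266481), measured 78.6, 132 and 188 in controls and 59.4, 81.1, 72.1 and 82 in KA. Control 1 lay among the KA values, and the log2 fold change was -0.98 (SE 0.29; edgeR adjusted p = 0.00918). Without control 3 it was -0.61 (edgeR adjusted p = 0.0739), so that call rests on 1 library.

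Irf4 and Irf8, both known mainly from lymphoid and myeloid cells, moved in opposite directions. Irf4 (chromosome 13, 30749226 to 30766976) measured 373, 107 and 180 normalized reads in controls and 66.3, 49.6, 57.4 and 89.3 in KA (log2 fold change -1.88, SE 0.40; edgeR adjusted p = 0.00182). Control 1 was the highest control here, and without it the log2 fold change was -1.22 (edgeR adjusted p = 0.00833). Irf8 (chromosome 8, 120736358 to 120756694) measured 54, 47.4 and 61.8 in controls and 273, 193, 165 and 171 in KA. It was the largest rise of the set, with a log2 fold change of 1.74 (SE 0.23; edgeR adjusted p = 0.000151) and no overlap. All 10 listed Langerhans and dendritic cell markers were also higher, Cd207 from 699 ± 114 (SD, n = 3) to 1369 ± 166 (SD, n = 4) and Flt3 from 26.7 ± 10.1 (SD, n = 3) to 80.8 ± 13.4 (SD, n = 4). Of 7 macrophage and monocyte markers 5 were higher and 2 lower. Of 7 T cell markers 4 were lower, 2 higher and 1 did not pass. Dct, the listed melanocyte marker, was at 102 to 205 in controls and 52.9 to 117 in KA. The part of these cells in the values of Irf4 and Irf8 was not tested.

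Irf2 and Irf5 changed less. Irf2, an antagonist of IRF1, went from 738 ± 78.6 (SD, n = 3) to 576 ± 49.2 (SD, n = 4), with a log2 ratio of KA to control of -0.49. Irf5, which acts downstream of Toll-like receptors, measured 610 ± 48.7 (SD, n = 3) and 790 ± 99.2 (SD, n = 4), with a log2 fold change of 0.24 that did not pass (edgeR adjusted p = 0.128). With the authors' size factors in place of factors from the listed genes it was 0.37 (edgeR adjusted p = 0.0212), and without KA 3 it was 0.14 (edgeR adjusted p = 0.313).

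**Figure D2:**
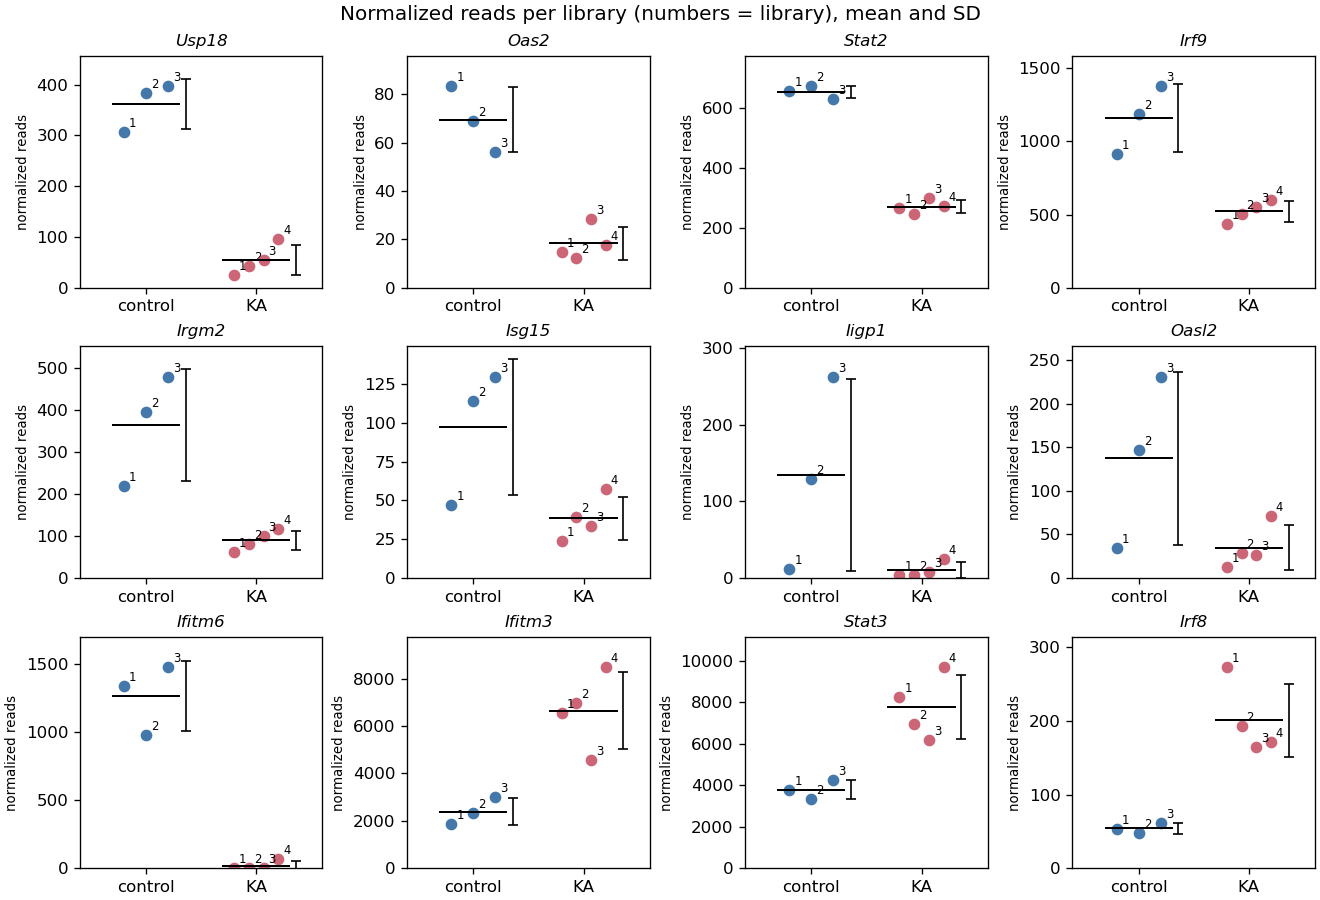
Normalized reads (vertical axes from 0, linear) of 12 members in each of the 3 control and 4 KA libraries, numbered points, with the group mean (line) and SD (bar, which ends at the axis where it would pass below 0). Stat2 and Usp18 separate the groups widely, control 1 lies near the KA values for Iigp1 and Oasl2, and Ifitm3, Stat3 and Irf8 are higher in KA.

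Of the 11 antiviral effectors and genes of the ISG15 system, 10 were lower and 1, Isg20l2, was higher. Usp18, the protease that removes ISG15 from proteins and also blocks the type I receptor (chromosome 6, 121245906 to 121270917), measured 306, 385 and 397 normalized reads in controls. In KA it measured 24.7, 42.8, 54.3 and 95.5, so that even the highest KA library was far below the lowest control. The mean fell by 85% and the log2 fold change was -2.86 (SE 0.37; edgeR adjusted p = 0.000135). Isg15 itself, the ubiquitin-like protein attached to other proteins in the response, averaged 97.2 ± 43.9 (SD, n = 3) in controls and 38.4 ± 14 (SD, n = 4) in KA. Its log2 fold change was -1.46 (SE 0.39; edgeR adjusted p = 0.00567), with controls from 47.3 to 130 and KA from 23.7 to 57.1. Uba7 and Herc6, the activating enzyme and the ligase of the same conjugation pathway, are outside the name rule and were lower too, with log2 fold changes of -0.75 (edgeR adjusted p = 0.0133) and -1.77 (edgeR adjusted p = 0.000699).

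The listed genes of the oligoadenylate synthetase family, whose active members sense double-stranded RNA and lead to activation of RNase L, were all lower. Oas2 (chromosome 5, 120730333 to 120749853) measured 83.3, 69.1 and 56.1 normalized reads in controls and 14.8, 12.4, 28.2 and 17.6 in KA (log2 fold change -2.05, SE 0.35; edgeR adjusted p = 0.000514). The groups were well apart. Oasl2, a synthetase-like protein (chromosome 5, 114896936 to 114912234), measured 34.1, 146 and 231 in controls and 12.9, 28.2, 26.1 and 71.6 in KA. Here KA 4 exceeded control 1, and the log2 fold change of -2.10 (SE 0.65; edgeR adjusted p = 0.0122) became -1.46 without control 3 (edgeR adjusted p = 0.0657). Oas1c, Oas1b and Oas1f lie with Oas2 in a cluster of 128 kb, and all 4 were lower. Oas1c went from 270 ± 32.5 (SD, n = 3) to 142 ± 29.3 (SD, n = 4) and Oas1b, annotated as a polymorphic pseudogene, from 138 ± 20.6 (SD, n = 3) to 74.5 ± 5.03 (SD, n = 4). Oas1f went from 4139 ± 294 (SD, n = 3) to 2714 ± 1027 (SD, n = 4), with KA 3 at 4177 inside the control range. Its log2 fold change of -0.73 (edgeR adjusted p = 0.0183) was -0.70 (edgeR adjusted p = 0.0526) without control 2. Per kilobase, mean Oas1f in controls stood at 2797 normalized reads against 15.6 for Oas2. Reads of the related Oas1 genes could have been divided among them, so their single values are uncertain.

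The other effectors of this group followed. Mx2, a dynamin-like GTPase listed as a polymorphic pseudogene, went from 20.3 ± 8.82 (SD, n = 3) to 5.26 ± 0.976 (SD, n = 4), with a log2 ratio of KA to control of -2.07 (edgeR adjusted p = 0.00177). Ifit1, which binds viral RNA lacking the host cap modification, went from 25.5 ± 14.1 (SD, n = 3) to 7.7 ± 4.84 (SD, n = 4), with a log2 ratio of KA to control of -1.85 (edgeR adjusted p = 0.0117), or -1.47 without control 3 (edgeR adjusted p = 0.062). Isg20, an exonuclease, went from 117 ± 22.4 (SD, n = 3) to 39.7 ± 4.89 (SD, n = 4), with a log2 ratio of KA to control of -1.70 (edgeR adjusted p = 0.00024). Isg20l2, a nucleolar exonuclease of ribosome assembly that shares only part of the name, measured 776, 847 and 829 in controls and 1364, 1087, 1034 and 1118 in KA. It was higher without overlap, by 0.36 on the log2 scale (SE 0.12; edgeR adjusted p = 0.0163). Its exons overlap those of Rrnad1 on the other strand, which had a log2 fold change of -0.72.

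Promoter sequences of RefSeq on GRCm38.p6, 250 bases before to 50 after each start, were found for 27 of the 36 members in 32 windows. They were searched on both strands for the core of the interferon-stimulated response element, GAAA with any 2 bases and another GAAA, and for the gamma-activated site, TTC with any 3 bases and GAA, which reads the same on both strands. Overlapping matches were kept. The first was present in 7 of 22 windows of lower members (31.8%), in 2 of 10 windows of higher members (20%) and in 1131 of all 32851 windows (3.44%). The second was present in 4 of 22 windows (18.2%), 3 of 10 (30%) and 8.3% of all windows. The genes with the response element core were Ifit1, Irf2, Irgm1, Irgm2, Isg15, Oas1c and Stat2 among lower members and Ifitm2 and Ifitm3 among higher ones, so both directions hold genes with this motif. The 250 bases before the start are shown for 4 of them that were lower and 1 that was higher, to set these directions beside the same motif. They are, 5′ to 3′ on the gene's strand, Isg15 (chr4:156200819-156201068, minus strand), Ifit1 (chr19:34640639-34640888, plus), Stat2 (chr10:128270248-128270497, plus), Irgm1 (chr11:48871421-48871670, minus) and Ifitm2 (chr7:140955962-140956211, minus), with every match in capitals:
Isg15: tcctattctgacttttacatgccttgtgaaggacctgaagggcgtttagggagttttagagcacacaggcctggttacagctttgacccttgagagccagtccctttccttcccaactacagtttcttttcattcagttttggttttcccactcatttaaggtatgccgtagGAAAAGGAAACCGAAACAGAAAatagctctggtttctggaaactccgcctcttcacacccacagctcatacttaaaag
Ifit1: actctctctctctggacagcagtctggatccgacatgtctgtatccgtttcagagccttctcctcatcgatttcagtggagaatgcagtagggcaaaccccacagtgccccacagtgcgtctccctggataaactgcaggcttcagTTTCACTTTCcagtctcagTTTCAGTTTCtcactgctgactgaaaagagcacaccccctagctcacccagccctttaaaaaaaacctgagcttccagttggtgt
Stat2: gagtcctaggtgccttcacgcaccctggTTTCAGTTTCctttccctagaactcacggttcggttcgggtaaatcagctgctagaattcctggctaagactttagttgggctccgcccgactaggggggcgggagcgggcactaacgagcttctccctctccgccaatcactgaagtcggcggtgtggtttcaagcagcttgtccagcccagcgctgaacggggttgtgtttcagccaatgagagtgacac
Irgm1: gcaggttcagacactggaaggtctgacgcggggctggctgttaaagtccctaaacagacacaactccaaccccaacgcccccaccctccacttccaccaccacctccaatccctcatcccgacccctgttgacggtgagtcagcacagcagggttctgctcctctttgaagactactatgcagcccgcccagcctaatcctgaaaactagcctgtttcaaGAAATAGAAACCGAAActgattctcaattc
Ifitm2: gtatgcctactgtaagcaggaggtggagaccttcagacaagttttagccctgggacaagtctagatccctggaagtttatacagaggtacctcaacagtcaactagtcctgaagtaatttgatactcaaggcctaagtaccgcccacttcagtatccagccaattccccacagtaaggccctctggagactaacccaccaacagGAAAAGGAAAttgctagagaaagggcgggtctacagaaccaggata
Isg15 holds 3 overlapping matches that begin 78, 72 and 66 bases before the start, and Irgm1 holds 2 that overlap and begin 30 and 24 bases before it. The 2 matches of Ifit1 begin 104 and 85 bases before the start and lie on the other strand, as does the match of Stat2 at 222 bases. Ifitm3 has its matches just after the start, in a stretch of 27 bases (chr7:141010716-141010742, minus strand) where 2 response element cores lie on either side of a gamma-activated site and the second overlaps it:
Ifitm3: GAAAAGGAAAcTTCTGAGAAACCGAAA
A match describes these letters only and shows no binding.

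The 4 IFITM genes, membrane proteins that hinder virus entry, lie within 63.1 kb on chromosome 7 (140954837 to 141017924) and differed in direction. Ifitm3 measured 1858, 2333 and 2995 normalized reads in controls and 6565, 6972, 4559 and 8494 in KA (log2 fold change 1.34, SE 0.22; edgeR adjusted p = 0.000447). All KA libraries lay above all controls. Ifitm2 measured 1129, 1076 and 1796 in controls and 2263, 2280, 1759 and 2347 in KA (log2 fold change 0.56, SE 0.18; edgeR adjusted p = 0.0126). KA 3 lay just below control 3, and the value was 0.43 without control 2 (edgeR adjusted p = 0.0589) and 0.87 without control 3 (edgeR adjusted p = 0.00145). Ifitm6 measured 1337, 980 and 1479 in controls and 1.98, 0, 1.04 and 67.5 in KA. Its mean fell by 98.6%, with a log2 fold change of -6.27 (SE 0.90; edgeR adjusted p = 0.000367). Without KA 4, which held nearly all KA reads, the log2 fold change was -10.21. The size of that value is uncertain, because KA 1, KA 2 and KA 3 had raw counts of 2, 0 and 1. Ifitm1, far less abundant, went from 26.7 ± 3.96 (SD, n = 3) to 12.3 ± 2.14 (SD, n = 4), with a log2 ratio of KA to control of -1.24 (edgeR adjusted p = 0.00572). Per kilobase, mean Ifitm3 in controls was 3533 and mean Ifitm6 1398, so Ifitm6 was among the more abundant members before its fall. Ifitm2 and Ifitm3 are close in sequence, and how shared reads were divided is uncertain.

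The other members named Ifi moved apart. Ifi30, a lysosomal reductase of antigen processing (chromosome 8, 70762774 to 70766663), measured 1626, 1565 and 1853 normalized reads in controls and 2525, 2391, 2347 and 2006 in KA. The groups did not overlap and the log2 fold change was 0.33 (SE 0.11; edgeR adjusted p = 0.018), or 0.27 (edgeR adjusted p = 0.0854) without control 2. Ifi203-ps, a pseudogene of the DNA-sensing Ifi200 family, had too few reads to be tested in the refit. It measured 22.7, 8.25 and 8.82 in controls and 0, 0, 0 and 1.04 in KA, at least 4.21-fold lower against a floor of 3 counts per library.

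All 5 GTPases of the Gbp, Irgm and Iigp families, which act in defence against intracellular microbes, were lower. Iigp1 (chromosome 18, 60376029 to 60392627) measured 11.4, 129 and 263 normalized reads in controls and 3.96, 3.38, 8.36 and 24.9 in KA. Its log2 fold change was -3.82 (SE 0.95; edgeR adjusted p = 0.00511), yet control 1 lay below KA 4. Gbp6 (chromosome 5, 105270702 to 105293698) measured 14.2, 48.5 and 79.4 in controls and 7.91, 2.25, 21.9 and 13.5 in KA (log2 fold change -2.16, SE 0.65; edgeR adjusted p = 0.0106). Without control 3 it was -1.52 (edgeR adjusted p = 0.0619). Irgm2 (chromosome 11, 58199618 to 58222782) separated the groups, with 219, 397 and 480 in controls and 62.3, 80, 99.2 and 116 in KA. Its log2 fold change was -2.15 (SE 0.29; edgeR adjusted p = 0.000168), and its exons overlap those of the related GTPase Igtp on the same strand, which had -1.48 (edgeR adjusted p = 0.00729). Gbp8 went from 40.7 ± 6.96 (SD, n = 3) to 12.5 ± 4.14 (SD, n = 4) and Irgm1 from 338 ± 166 (SD, n = 3) to 144 ± 54.4 (SD, n = 4), with log2 fold changes of -1.84 (edgeR adjusted p = 0.0012) and -1.35 (edgeR adjusted p = 0.00667). The annotation has exons of Gbp8 overlapping Gbp4 and Gbp9, and the Gbp genes are similar in sequence, so their reads are uncertain.

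The lower interferon-induced genes differed in how much the controls varied among themselves. In 10 of the 19 (52.6%) the highest control was at least 2 times the lowest, where this held for 9.79% of all listed genes. In 11 of the 19 (57.9%) control 1 was the lowest and control 3 the highest control, against 24.9% of all listed genes and 0 of the 8 other lower members. The ratio of highest to lowest control was 23.2 for Iigp1, 6.78 for Oasl2, 5.59 for Gbp6 and 3.81 for Ifit1. It was 1.30 for Usp18, 1.27 for Oas1c and 1.07 for Stat2, genes that fell from an even control level. Control 3 also had the most reads in listed genes, and the part of depth in this spread was not tested. Within KA, library 4 held the highest value in 11 of the 19 (57.9%) and in 5 of the 8 other lower members (62.5%), against 23% of all listed genes. Controls 1 and 3 were the female controls, and KA 3 and KA 4 the female KA libraries. By animal number, control 3, KA 3 and KA 4 (4875 to 4877) form a higher run and the other libraries (4853 to 4857) a lower one. Control 3 was the highest control in 13 of the 19 (68.4%), against 38% of all listed genes. KA 3 was the highest KA library in 6 of the 19 (31.6%), against 28%, beside the 11 of KA 4 in the same run. KA 1 was the highest in 0 of the 19 and KA 2 in 2 (10.5%), against 35.7% and 13.3% of all listed genes. In KA the higher run and the females are the same libraries, so run and sex cannot be told apart there. The part of run or sex in this spread was not tested. Among females alone (2 KA, 2 controls) 15 members passed as lower and 5 as higher, where 35.2% and 26.7% of all genes tested passed. The 14 members that lost the call there were Iigp1, Isg15, Oasl2, Ifit1, Gbp6, Irf7, Irgm1, Ifi30, Ifitm1, Ifitm2, Ifngr1, Irf2, Isg20l2 and Oas1f, some of which had even controls. In males both KA libraries lay beyond the single control in the pooled direction for 36 of 36 members, as they did for 99.6% of all listed genes. In the higher run of animal numbers, also with 1 control, this held for 35 of 36 members and 97.3% of all listed genes. Both shares were near those of all listed genes.

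**Figure D3:**
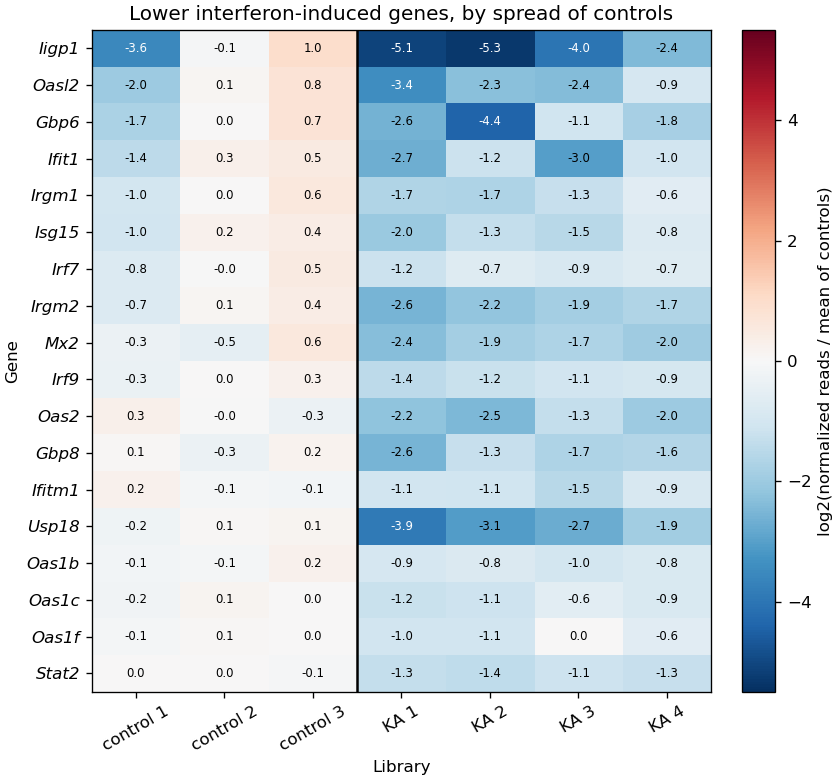
Log2 ratio of normalized reads to the mean of the 3 controls (colour and printed value) for 18 lower interferon-induced members (rows, widest control spread at the top) in each library (columns). Ifi203-ps is left out because of its zeros. Control 1 is low for the genes in the upper rows, down to Irgm2, while Usp18 and Stat2 are even among controls and low in every KA library.

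Interferon-related genes outside the name rule were examined in 4 lists. Of 64 further interferon-induced genes 25 were listed and 24 tested, of which 19 were lower and 5 higher (median log2 fold change -0.90). Those with the smallest adjusted p were Tdrd7 (-1.19, edgeR adjusted p = 0.000139), Lgals9 (1.29, edgeR adjusted p = 0.000166) and Xaf1 (-1.96, edgeR adjusted p = 0.000276). Tdrd7 restrains virus replication, Lgals9 encodes a secreted lectin, and Xaf1 promotes apoptosis. Xaf1 went from 156 ± 67.5 (SD, n = 3) to 43.6 ± 5.11 (SD, n = 4). Of 17 kinases and brakes of the receptor pathway 8 were listed, 7 lower and 1, Ptpn2, higher. Cish, a feedback inhibitor of STAT5, went from 1363 ± 145 (SD, n = 3) to 587 ± 167 (SD, n = 4) (edgeR adjusted p = 0.00025). The phosphatase Ptpn6 had a log2 fold change of -0.71 (edgeR adjusted p = 0.000924) and the deubiquitinase Usp2 one of -1.14 (edgeR adjusted p = 0.000973). Tyk2, a kinase of the type I receptor, had -0.55 (edgeR adjusted p = 0.00747).

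Nucleic acid sensors and their adaptors were split, with 5 lower and 4 higher of 9 tested (10 of 28 listed). Aim2, the cytosolic DNA sensor of an inflammasome, went from 56.2 ± 25.4 (SD, n = 3) to 415 ± 94.4 (SD, n = 4), with a log2 ratio of KA to control of 2.73 (edgeR adjusted p = 4.72e-05). Tmem173, the adaptor STING, had 2.04 (edgeR adjusted p = 0.000125), while the adaptor Traf6 had -0.74 (edgeR adjusted p = 0.00138). Ifih1, the sensor MDA5 and itself interferon-induced, was lower, from 496 ± 61.8 (SD, n = 3) to 278 ± 65.1 (SD, n = 4) (edgeR adjusted p = 0.00149). Antigen presentation genes that interferon gamma induces had 6 higher and 5 lower of 11 listed (19 in the list). Nlrc5, the activator of MHC class I genes, had -1.16 (edgeR adjusted p = 0.000202), and H2-Q4, Tap1, H2-T23 and Psmb9 of the class I pathway were lower as well. The class II genes Cd74 (1.06, edgeR adjusted p = 0.00032), H2-Ab1, H2-Eb1 and H2-Aa, their activator Ciita and the proteasome activator subunit Psme2 (1.00, edgeR adjusted p = 0.000333) were higher. The 4 class II genes other than Ciita are also in the Langerhans and dendritic cell list above, and the part of cell numbers in their values was not tested.

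**Figure D4:**
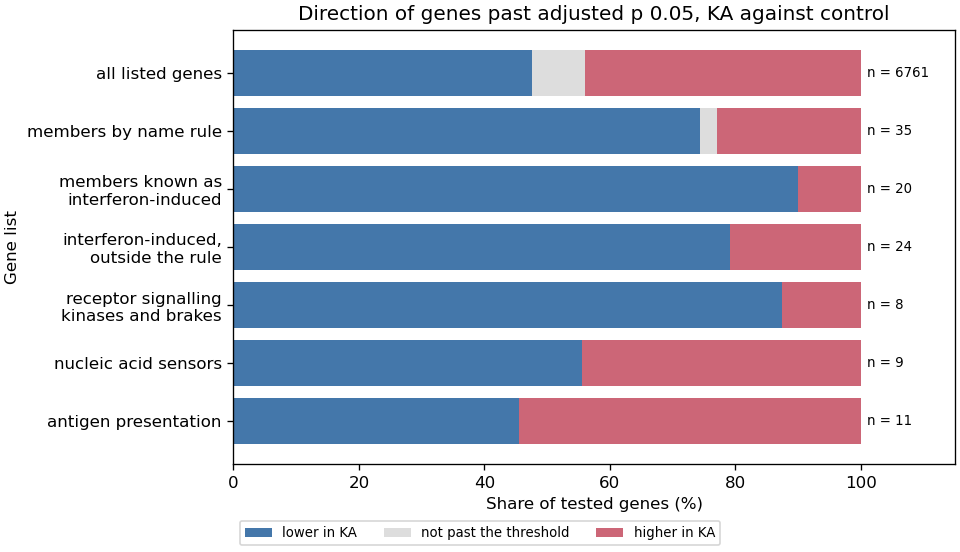
Share of tested genes (horizontal axis, percent) that passed as lower or higher in KA, or did not pass, for all listed genes, the members, the known interferon-induced members and 4 further lists. The lower share is 47.5% over all listed genes, 74.3% over the members and 90% over the known interferon-induced members.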

How the data were processed

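RNA was sequenced in 7 epidermal libraries (4 KA, 3 control), grouped by their titles. Per the submitters' processing notes, fastp, STAR 2.6.1d, featureCounts 1.5.0-p3, DESeq2 1.40.2 and the build mm10 were used; their settings are not given in the sources used here. Per the file headers, each library has a raw count column and a normalized column in the deposited table, the latter a signal whose values equal the counts over 1 size factor per library (0.888 to 1.25). The deposited baseMean is the authors' mean of that signal. Per the file headers the authors' log2 fold change with its SE, test score, p-value and adjusted p-value are also deposited. The table lists 7091 genes, all with an authors' adjusted p under 0.05 (largest 0.04995), of 19407 that their adjustment ran over (36.5%). It holds 0 columns of other samples.

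The refit of the counts used edgeR 4.0.16 (R 4.3.3) with filterByExpr (6761 genes kept, 330 left out, Ifi203-ps among them), TMM factors, robust glmQLFit, glmQLFTest, Benjamini-Hochberg adjustment and a threshold of 0.05. The SE was derived from the F statistic and the log2 fold change. Group means with SD use the deposited normalized values, and levels per kilobase divide these by the listed gene length. The common biological coefficient of variation was 0.193. The method was tested on simulated counts in which most genes did not change. Here 91.5% of the genes tested passed, and the simulation does not cover that setting. The titles give each mouse a letter and an animal number, and letter C marks the same libraries as the higher run. What the letters and numbers stand for is not given in the labels. Libraries are separate mice, and p-values measure the spread between them. The bound for 0 counts covers counting error only. Positions are the table's, and 35 of 36 members have the same ones in GENCODE M21 (GRCm38).

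The members and lists were chosen with earlier results of these data known. Results of 1 member are not reported here, and every other member is named. Per-library values and full statistics are given for up to 3 members per role and direction with the largest change, if they passed and averaged 2 CPM or more (22 members). From each further list the 3 genes lowest in adjusted p are named; Uba7, Herc6, Igtp, Tyk2, Ifih1, the further antigen presentation genes and the cell markers with values were chosen after their values were seen. Alternatives were RLE, upper quartile and the authors' size factors, other filters, DESeq2 1.42.0, limma-voom (limma 3.58.1), terms for sex, run of animal numbers, title letter or sample number, subsets of libraries, and stricter calls.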

Additional observations from a re-analysis of the deposited data

Results flagged for a closer look

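Dixon's test at the 95% level was applied to the 4 KA values of each of the 36 members, taking the distance of the highest or lowest value from the next one as a share of the range. Chance flags about 1 in 20, or 1.8 of 36, and 3 passed. For Ifitm6 the ratio was 0.971, with KA 4 at 67.5 normalized reads and the others at 1.98, 0 and 1.04. For Ifi203-ps it was 1, which is a single read in KA 4. For Ifitm2 it was 0.857, with KA 3 the lowest at 1759 where the others were 2263 to 2347. No member moved in opposite directions without overlap between males and females, or between the runs of animal numbers. Males and the higher run hold 1 control each. There, 99.6% and 97.3% of all listed genes lay beyond that control in the pooled direction, so this outcome was nearly fixed in advance.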

How the results depend on the processing

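All 35 tested members kept their direction under all 22 alternatives with a value for each member (770 values, 0 reversed), 20 kept the call throughout, 26 values lost it and 2, both of Irf5, gained it. Every listed gene had passed the authors' call on these same libraries, so a kept direction was nearly fixed in advance. The share of all listed genes that kept theirs was not computed. With females alone 5 members passed as higher and 15 as lower, against 8 and 26. At an adjusted p under 0.01 5 members were higher and 22 lower, with a log2 fold change of at least 1 they were 2 and 20, and the higher count over the known interferon-induced members alone was 2. The count over all listed genes was 6188, with 4174 for females alone, 5059 at an adjusted p under 0.01 and 2806 with a log2 fold change of at least 1. Leaving out 1 library at a time gave 6 to 8 higher and 22 to 26 lower members, and 5792 to 6029 listed genes without 1 control and 5846 to 6132 without 1 KA library. With the authors' size factors the median shift of the log2 fold changes was 0.134, which put 52.5% of passing genes higher, against 48.1%, with 9 members higher and 26 lower.

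The lower run of animal numbers alone (2 KA, 2 controls) gave 8 higher and 24 lower, losing Ifit1 and Irf7. Deviations of same-numbered samples from their group means correlated at -0.202, 0.148 and -0.0913. Those of differently numbered samples correlated at -0.211 to 0.204. With so few libraries centred within each group, these values cannot decide whether sample numbers pair the libraries. With the replicate block by sample number 7 members were higher and 26 lower, and 5730 listed genes passed. Low counts limit Mx2, Ifit1, Ifitm1, Gbp8, Gbp6 and Ifi203-ps, and in KA also Ifitm6.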
